A study of Mus musculus with 8 samples.

Results

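The 9 nuclear envelope genes described here were followed in adult mouse hippocampus: the torsins Tor1a, Tor1b, Tor2a and Tor3a, the torsin cofactors Tor1aip1 and Tor1aip2, and the lamins Lmna, Lmnb1 and Lmnb2. The set was chosen from these data: Tor1aip1 was lower in every mouse exposed to bisphenol A (BPA), and the other 8 genes were added as its relatives. The group difference of Tor1aip1 is therefore given as a description without a test. All 9 were among the 24527 gene rows of the count table, and all 9 passed the filter on low counts, with 176 to 2712 reads per gene and library.

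RNA came from the hippocampus of 8 male wild-type C57BL/6J mice aged 20 weeks, 1 library per mouse. The 4 control mice had been exposed in the womb and during suckling to a low-phytoestrogen feed, and the 4 BPA mice to that feed with 50 mg BPA per kg. BPA, a building block of polycarbonate plastic, can bind oestrogen receptors. From weaning on postnatal day 21 both groups ate the control feed, so that exposure had ended long before sampling. The litters of the mice are not given in the sources used here. The p-values treat each mouse as an independent unit, which does not hold if mice of a group shared a litter. Libraries were made from polyadenylated RNA of bulk tissue, where fewer cells of a type and less RNA per cell cannot be told apart.

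Torsins are ATPases of the AAA+ family that lie in the lumen of the endoplasmic reticulum and in the space between both nuclear membranes. They hydrolyse ATP only with a membrane-bound cofactor, which completes their active site. Tor1aip1 encodes LAP1, the cofactor in the inner nuclear membrane, which also binds lamins, and Tor1aip2 encodes LULL1, the cofactor in the endoplasmic reticulum. Lamins are the filaments of the meshwork under the inner membrane. A small in-frame deletion in human TOR1A causes early-onset dystonia, a movement disorder, and neurons that lack torsin A form blebs of the inner nuclear membrane.

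The genes lie partly in pairs, which bears on how their reads can be counted. In mm10, Tor1aip1 (ENSMUSG00000026466.16) spans chr1:156004599-156036480 on the minus strand and Tor1aip2 (ENSMUSG00000050565.16) spans chr1:156035403-156068861 on the plus strand. Their 5′ ends overlap by 1078 bp, and 699 bp are exonic in both genes, which is 12.9% of the exon length of Tor1aip1 and 7.58% of that of Tor1aip2. Of the 5 start sites that RefSeq gives for Tor1aip2, 3 lie inside the Tor1aip1 gene. The libraries were stranded, but for featureCounts, the counting tool, a strand setting was not given in the sources used here. Reads of the shared stretch may have been assigned to either gene or to none. Tor1b (chr2:30952959-30959015, plus strand) and Tor1a (chr2:30960627-30967933, minus strand) point towards each other, with 1611 bp between their 3′ ends and no shared exon. Tor2a (chr2:32757234-32762244) shares 403 bp of exon with Ttc16 on the opposite strand, 13.2% of its exon length. Tor3a (chr1:156653617-156674356), Lmna (chr3:88480147-88509956) and Lmnb2 (chr10:80901203-80918245) overlap no other annotated gene.

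Upstream stretches of 3 genes are shown because they belong to the genes that the results turn on, the cofactor pair and Tor1a. They come from RefSeq on GRCm38.p6, the assembly of mm10, and are trimmed where an annotated exon begins. The stretch of Tor1a is chr2:30967934-30968168 on the minus strand, that of Tor1aip1 is chr1:156036555-156036730 on the minus strand, and that of Tor1aip2 is chr1:156040590-156040839 on the plus strand, before its start site at 156040840. Capitals mark matches, on either strand, to TNNNGGCA, the core bound by THAP1, a regulator of TOR1A and itself a dystonia gene, and to the GC box GGGCGG. The E-box CACGTG and the ETS core CCGGAA were searched as well and had no match in these stretches.
Tor1a: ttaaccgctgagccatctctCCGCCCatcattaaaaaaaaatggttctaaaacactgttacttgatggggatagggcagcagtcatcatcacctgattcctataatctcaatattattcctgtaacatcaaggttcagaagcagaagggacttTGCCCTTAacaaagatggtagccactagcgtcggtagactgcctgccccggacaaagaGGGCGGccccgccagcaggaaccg
Tor1aip1: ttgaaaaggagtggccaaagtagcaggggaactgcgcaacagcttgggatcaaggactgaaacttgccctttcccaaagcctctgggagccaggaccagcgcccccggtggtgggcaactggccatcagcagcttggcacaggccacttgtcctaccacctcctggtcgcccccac
Tor1aip2: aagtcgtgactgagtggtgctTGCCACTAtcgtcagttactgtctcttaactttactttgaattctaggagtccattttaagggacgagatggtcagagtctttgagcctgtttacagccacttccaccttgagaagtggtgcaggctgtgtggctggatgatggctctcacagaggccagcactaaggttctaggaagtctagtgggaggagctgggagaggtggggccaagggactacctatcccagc
The Tor1a stretch held 1 match to the THAP1 core and 2 GC boxes, the Tor1aip2 stretch held 1 match to the THAP1 core, and the Tor1aip1 stretch held none of the 4. The untrimmed windows, which reach into annotated exons, held 1 further THAP1 core for Tor1aip1 and 1 ETS core for Tor1a. A second Tor1aip1 start site, at 156034817, also had 1 THAP1 core in its window. Of the 5 Tor1aip2 windows, the 3 inside the Tor1aip1 gene held no THAP1 core, 1 of them (start site 156036036) held a GC box and an ETS core, and both downstream windows held the THAP1 core. The Tor1aip2 stretch shown is thus 1 of those with the match. Such matches are common: of 32536 different upstream windows of 250 bases, 36.3% held TNNNGGCA, 33.0% GGGCGG, 12.1% CCGGAA and 6.04% CACGTG. A match is a string of letters and not a bound site. Upstream windows were found for 6 of the 9 genes, and not for Tor1b, Tor3a or Lmnb1. The Tor2a window and both Lmnb2 windows held 1 THAP1 core each. Lmna held 1 in its window at start site 88493312 and none in that at 88503352. Each of the 6 genes thus had the core in a window, so it does not set Tor1a or the cofactors apart.

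Library totals ran from 27135071 to 40793192 counts in controls and from 43119986 to 54013884 counts in BPA mice, so that every BPA library was deeper than every control. Levels are given in CPM, counts scaled to a common library size with TMM factors, mean ± SD over 4 mice, and group differences as log2 fold changes of BPA against control ± SE. Across 15434 tested genes, the quasi-likelihood test of edgeR called 0 at an adjusted p of 0.05 (0%), with 698 at an unadjusted p under 0.05 (4.52%). DESeq2, run on all rows with reads, gave a p-value for 20749 genes. It called 7, with 627 at an unadjusted p under 0.05. On the same number of genes as edgeR, 15434, limma-voom called 0, with 704. Markers of dentate granule cells and CA pyramidal neurons were present in every library, with summed levels of 339 to 482 and 251 to 326 CPM. In the fit, 0 of 5 dentate granule markers and 6 of 6 CA pyramidal markers were lower in BPA mice, as were 8 of 8 choroid plexus and 6 of 6 ependymal markers; their part in the results was not tested. None of the 16 lists of cell type and regional markers had summed levels that kept the groups apart. Choroid plexus, endothelial and meningeal markers were highest in replicate 2 among controls and replicate 3 among BPA mice, with choroid plexus sums of 64.6 to 1930 CPM in control mice and 37.7 to 464 CPM in BPA mice.

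Divided by exon length, the RNA levels of torsin A and the cofactor LAP1 were the highest of the set, and that of torsin 3A the lowest. In CPM without that division, Tor1a came after Tor1aip1, Tor1aip2 and Tor1b. Means over all libraries were 56.2 CPM for Tor1aip1, 44.1 for Tor1aip2, 27.0 for Tor1b and 21.0 for Tor1a. Per kb of exon, Tor1a was at 10.2 ± 0.445 CPM in control mice and 10.8 ± 0.718 CPM in BPA mice. Tor1aip1 was at 11.2 ± 0.42 CPM per kb in controls and 9.57 ± 0.247 CPM per kb in BPA mice. On this scale Tor1aip1 lay above Tor1a in 4 of 4 controls and below it in 4 of 4 BPA mice; the difference of Tor1aip1 that chose the set enters this order, which was not tested. A second tier held Tor1b, at 5.32 ± 0.283 CPM per kb in controls, and Tor1aip2, at 4.85 ± 0.226 CPM per kb in controls, whose ranges again overlapped. Lmnb2, Lmna, Tor2a and Lmnb1 lay between 2.43 and 2.67 CPM per kb in controls, each range meeting that of the next gene in order. Tor3a was lowest, at 1.68 ± 0.303 CPM per kb in controls, below the range of every other member. Exon lengths are the union of all annotated transcripts. A gene with a long union, such as Tor1aip2 with 9218 bp, is thus placed too low if most of its RNA is shorter. Tor1b was divided by 5327 bp and Tor1a by 1995 bp, which sets their order on this scale. These lengths come from GENCODE, while the counted rows follow refGene.

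**Figure D1:**
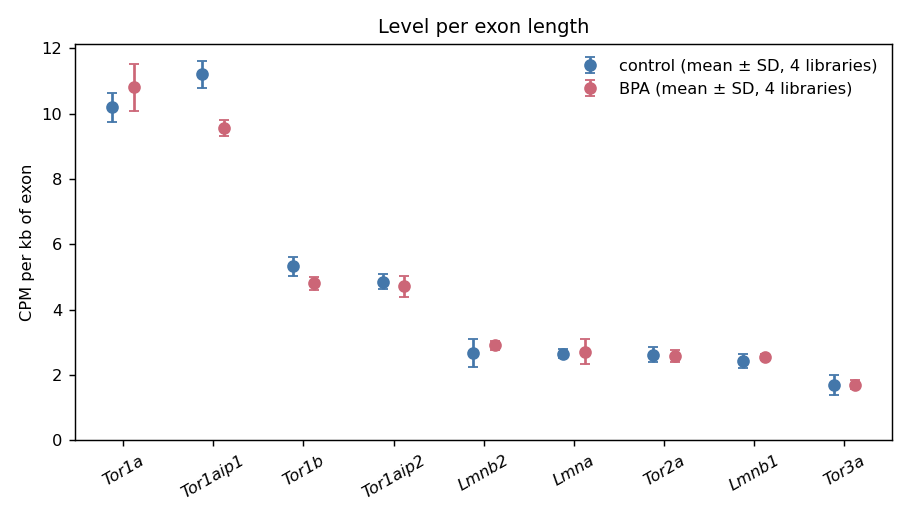
Level per exon length of the 9 genes, in CPM per kb of exon on the y axis, as mean ± SD over 4 control (blue) and 4 BPA (red) libraries. Tor1a and Tor1aip1 lie near 10, Tor1b and Tor1aip2 near 5, and the lamins, Tor2a and Tor3a below 3.

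Tor1aip1, which encodes LAP1, was lower in all 4 BPA mice. Its level was 57.4, 60.6, 61.5 and 62.7 CPM in control replicates 1 to 4, and 50.6, 50.6, 53.1 and 52.7 CPM in BPA replicates 1 to 4. The lowest control lay above the highest BPA mouse, and the gene varied little within groups, with a coefficient of variation of 3.74% in controls and 2.57% in BPA mice. The means were 60.5 ± 2.27 and 51.8 ± 1.33 CPM, a log2 fold change of -0.23 ± 0.044, or 0.856-fold. This difference chose the set and has no test here. Among all tested genes, 1.43% were lower in every BPA mouse than in every control and 1.37% were higher in every BPA mouse. Leaving out 1 library at a time gave log2 fold changes of -0.25 to -0.21. Within groups Tor1aip1 was also lower in deeper libraries, with a slope of -0.18 per doubling of the library total. That slope over the depth difference between groups comes to -0.083, and the log2 fold change was -0.14 with log2 library total as a covariate and -0.22 in libraries thinned to the smallest total.

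The partner cofactor Tor1aip2, read from the opposite strand of the same locus, did not separate the groups. Its level was 43, 46.6, 42.8 and 46.4 CPM in control replicates 1 to 4, and 41.2, 42.4, 47.8 and 42.4 CPM in BPA replicates 1 to 4. BPA replicate 3 was the highest of all 8 libraries and BPA replicate 1 the lowest. The fold was 0.971 with a 95% interval of 0.892 to 1.06 (edgeR, adjusted p 0.958), and the log2 fold change was 0.012 once the library total entered as a covariate. Counts of Tor1aip1 were 1.30 to 1.43 times those of Tor1aip2 in controls and 1.11 to 1.24 times in BPA mice. The ratio of the cofactors was thus lower in every BPA mouse; it carries the difference that chose the set and was not tested. The counts do not show whether or how reads of the 699 bp of shared exon enter this ratio. That stretch is taken from GENCODE, while the counted rows follow refGene.

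**Figure D2:**
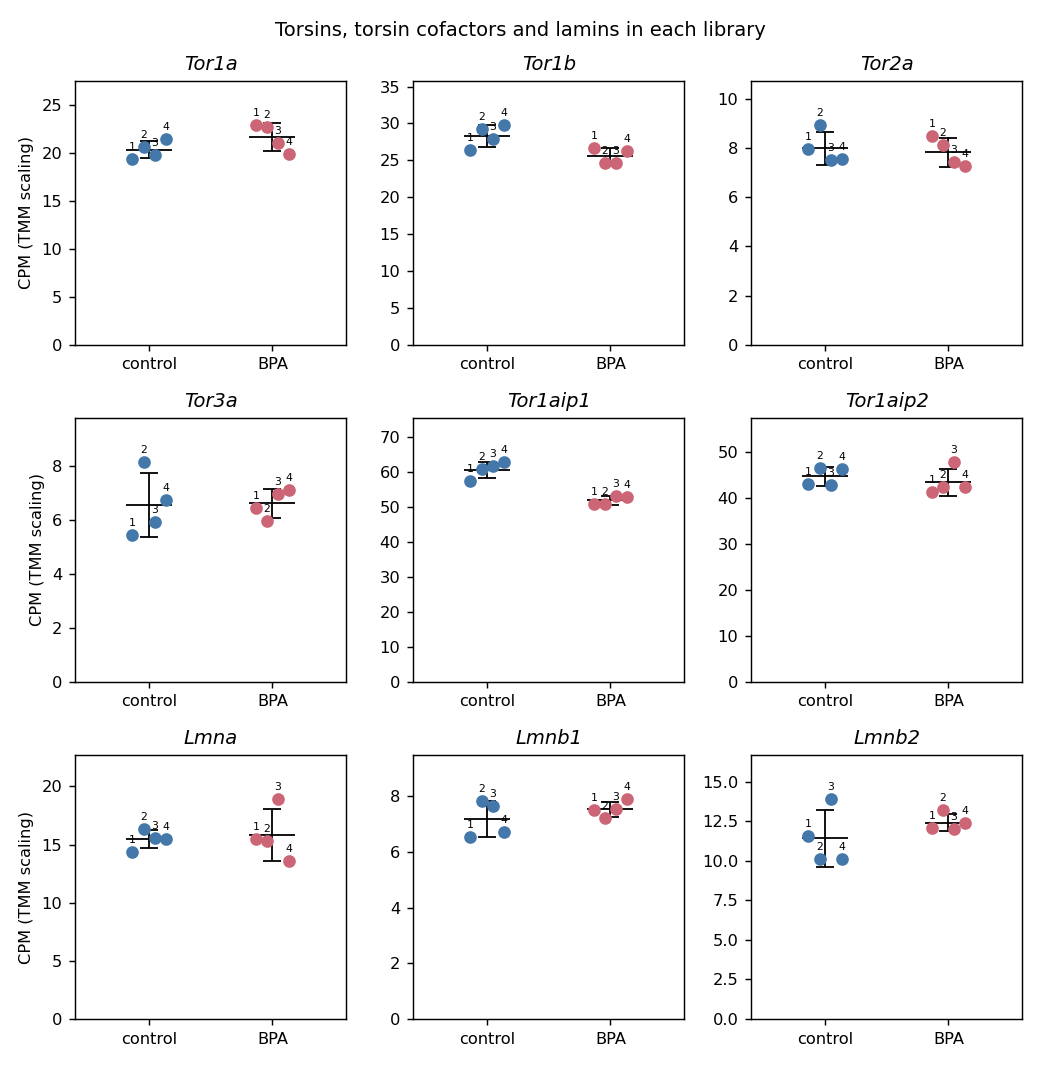
Level of each gene in CPM (y axis, starting at 0) in each library, with replicate numbers above the points and black bars for mean ± SD over 4 libraries of a group. Only the panel of Tor1aip1 has groups that do not overlap, with controls at 57.4 to 62.7 and BPA mice at 50.6 to 53.1.

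Among the torsins, Tor1b was lower and Tor1a higher on average in BPA mice, and neither passed the test across all genes. Tor1a, torsin A, was at 19.4, 20.6, 19.8 and 21.4 CPM in control replicates 1 to 4, and at 22.9, 22.7, 21 and 19.9 CPM in BPA replicates 1 to 4. BPA replicates 1 and 2 lay above all controls, and BPA replicates 3 and 4 within the control range. The fold was 1.07 with a 95% interval of 0.973 to 1.17 (edgeR, adjusted p 0.955). Tor1b, torsin B, the nearest relative of torsin A and its neighbour on chromosome 2, was at 26.4, 29.2, 27.9 and 29.8 CPM in control replicates 1 to 4. In BPA replicates 1 to 4 it was at 26.7, 24.6, 24.7 and 26.3 CPM. Only control replicate 1 and BPA replicate 1 kept the groups from separating. The fold was 0.903 with a 95% interval of 0.833 to 0.980 (edgeR, unadjusted p 0.0187, adjusted p 0.955). Tor1b was the 1 of the 8 genes other than Tor1aip1 with an unadjusted p under 0.05, where the share over all tested genes was 4.52%. Within groups Tor1b was lower in deeper libraries, with a slope of -0.22 per doubling of the library total. Its log2 fold change was -0.044 with the library total as a covariate (edgeR, adjusted p 0.998). In libraries thinned to the smallest total it was -0.187 (edgeR, unadjusted p 0.00493, adjusted p 0.958). Tor1a was at 0.109 with the covariate and 0.14 after thinning (edgeR, unadjusted p 0.306 and 0.0347, adjusted p 0.998 and 0.958). The part of depth in these values was not tested.

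The ratio of torsin A to torsin B kept the groups apart, although neither gene did so alone. Counts of Tor1a were 0.736, 0.708, 0.709 and 0.718 times those of Tor1b in control replicates 1 to 4, and 0.859, 0.926, 0.847 and 0.755 times in BPA replicates 1 to 4. Controls lay within a narrow band, and every BPA mouse lay above it, with BPA replicate 4 closest. On the log2 scale controls averaged -0.48 ± 0.026 and BPA mice -0.24 ± 0.12 (SD, n = 4 each), a difference of 0.23 (two-sided exact permutation test, p = 0.0286, the lowest possible with 4 mice per group). Adjusted over the 3 ratios tested, p was 0.0858, which does not pass 0.05. On leaving out any 1 of the controls the exact p was 0.0571. Being a ratio within a library, it does not move with scaling. Its within-group slope on log2 library total, taken over the depth difference between groups, comes to 0.083 of the 0.23. The 3 ratios were picked with earlier results of these data known.

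**Figure D3:**
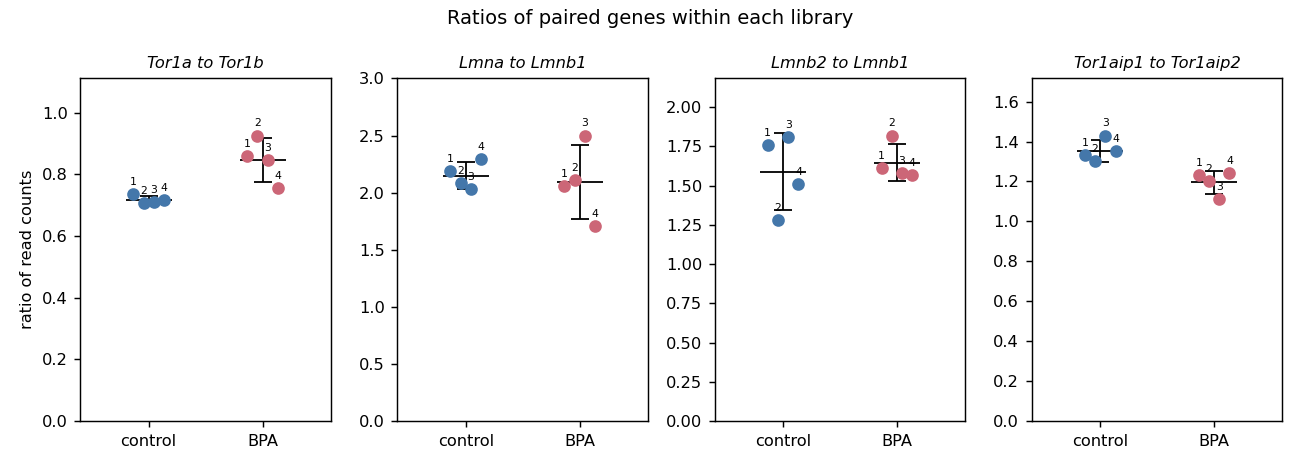
Ratio of read counts of 2 related genes within each library (y axis, starting at 0), with replicate numbers above the points and black bars for mean ± SD over 4 libraries. For Tor1a to Tor1b all BPA libraries (0.755 to 0.926) lie above all controls (0.708 to 0.736), for Tor1aip1 to Tor1aip2 all lie below, and for both lamin ratios the groups overlap.

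The remaining torsins were weakly expressed and did not pass the test. Tor2a was at 7.98, 8.95, 7.52 and 7.55 CPM in control replicates 1 to 4, and at 8.5, 8.12, 7.45 and 7.26 CPM in BPA replicates 1 to 4. The groups overlapped almost fully, with a fold of 0.977 and a 95% interval of 0.860 to 1.11 (edgeR, adjusted p 0.977). Tor3a, known as a gene that interferon can induce, was at 5.44, 8.13, 5.91 and 6.71 CPM in control replicates 1 to 4. In BPA replicates 1 to 4 it was at 6.42, 5.95, 6.94 and 7.1 CPM, all within the control range. The fold was 1.01 with a 95% interval of 0.841 to 1.21 (edgeR, adjusted p 0.994). Control replicate 2, the control with the most choroid plexus and endothelial marker RNA, was the highest of all libraries for both Tor2a and Tor3a. Without it the log2 fold changes were 0.027 for Tor2a and 0.14 for Tor3a. The part of those cells in either value was not tested. The further torsin Tor4a was at 1.63 ± 0.580 CPM in control mice and 1.28 ± 0.330 CPM in BPA mice (adjusted p 0.955 in edgeR). Its log2 fold change was -0.36 ± 0.24, and -0.07 on leaving out control replicate 2. Ttc16, which shares exon with Tor2a, was at 0.842 ± 0.160 CPM in control mice and 0.538 ± 0.238 CPM in BPA mice (log2 fold change -0.66 ± 0.28; edgeR, adjusted p 0.955).

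All 3 lamin genes had slightly higher means in BPA mice, and none passed the test. Lmna, which encodes lamins A and C, was at 14.4, 16.3, 15.6 and 15.5 CPM in control replicates 1 to 4, and at 15.5, 15.3, 18.9 and 13.6 CPM in BPA replicates 1 to 4. BPA replicates 3 and 4 were the highest and the lowest of all 8 libraries. The fold was 1.02 with a 95% interval of 0.894 to 1.17 (edgeR, adjusted p 0.977). BPA replicate 3 also had the highest sum of meningeal fibroblast markers, in a range of 63.9 to 91.3 CPM in BPA mice and 55.7 to 82.8 CPM in controls, with reads for each of the 6 markers. Of these markers, 3 had lower fitted values in BPA mice and 3 higher. Without that library the log2 fold change of Lmna was -0.061. Among BPA mice, BPA replicate 3 also had the highest sums of endothelial, pericyte and smooth muscle, and choroid plexus markers. These were 204, 208 and 464 CPM, with control maxima of 198, 199 and 1930 CPM. The part of meningeal or any of these other cells in the Lmna value was not tested.

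The B-type lamins come from separate genes. Lmnb1 (chr18:56707813-56753424, no other annotated gene overlapping) was at 6.55, 7.83, 7.65 and 6.71 CPM in control replicates 1 to 4, and at 7.51, 7.24, 7.54 and 7.9 CPM in BPA replicates 1 to 4. The BPA mice lay close together, in the upper part of the control range and just above it. The fold was 1.05 with a 95% interval of 0.928 to 1.19 (edgeR, adjusted p 0.957). Lmnb2 was at 11.6, 10.1, 13.9 and 10.1 CPM in control replicates 1 to 4, and at 12.1, 13.2, 12 and 12.4 CPM in BPA replicates 1 to 4. All BPA mice lay between the second highest and the highest control. The fold was 1.09 with a 95% interval of 0.943 to 1.26 (edgeR, adjusted p 0.957). The log2 fold change of Lmnb2 was 0.12 with all libraries and 0.068 with the library total as a covariate. Leaving out 1 library gave 0.065 (without control replicate 2) to 0.23 (without control replicate 3, the highest control). Counts of Lmna were 2.03 to 2.29 times those of Lmnb1 in controls and 1.71 to 2.5 times in BPA mice, a log2 difference of -0.047 (two-sided exact permutation p = 0.743, adjusted over the 3 ratios 0.743). For Lmnb2 to Lmnb1 the counts stood at 1.28 to 1.81 in controls and 1.57 to 1.82 in BPA mice, a log2 difference of 0.060 (two-sided exact permutation p = 0.686, adjusted 0.743). Neither lamin ratio separated the groups. Of 6 markers of proliferating cells, in which lamin B1 is known to be high, 4 passed the filter on low counts. Summed levels of all 6 ran from 32.4 to 35.6 CPM in control mice and from 33.9 to 36.3 CPM in BPA mice.

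**Figure D4:**
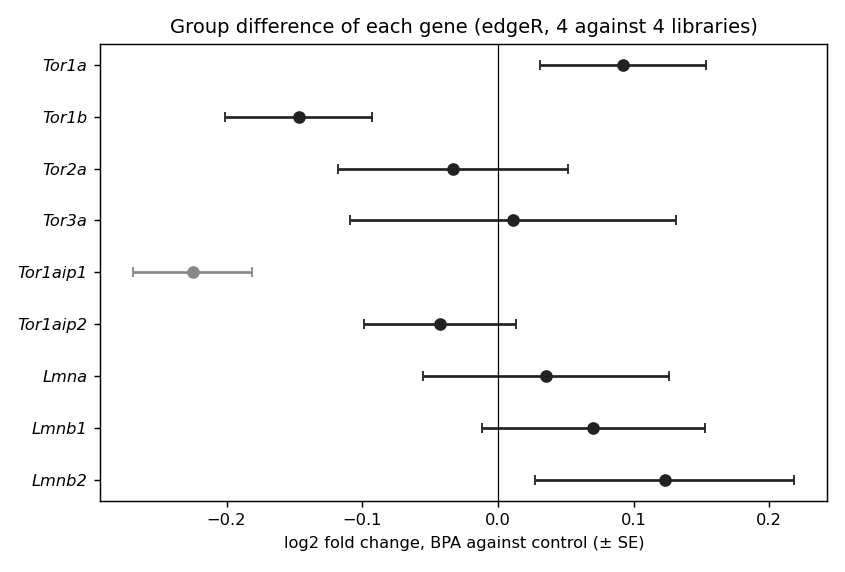
Log2 fold change of BPA against control on the x axis for each of the 9 genes, as estimate ± SE from the edgeR fit, with Tor1aip1 in grey because its difference chose the set. Tor1aip1 (-0.23) and Tor1b (-0.15) lie furthest to the left and Lmnb2 (0.12) furthest to the right.

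Across the set, 4 genes were lower and 5 higher in BPA mice, with a median log2 fold change of 0.011 against 4.9e-05 over all tested genes. Of the 8 genes other than Tor1aip1, 3 were lower and 5 higher, 0 had groups that did not overlap (1.43% of all tested genes apart and lower, 1.37% apart and higher), and 0 passed the test in edgeR, DESeq2 or limma-voom.

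The profile of Tor1aip1 over the 8 libraries was compared with that of every other tested gene by the root-mean-square distance between mean-centred log2 CPM. The nearest of 15433 genes was Entpd5, which encodes a nucleoside diphosphatase of the endoplasmic reticulum, at a distance of 0.0499 log2 units. Entpd5 was at 34.2 to 37.9 CPM in control mice and 29.7 to 33.3 CPM in BPA mice. Zfp770, a zinc finger gene, and Styx, which encodes a pseudophosphatase, both followed at 0.0529. Yars2, a mitochondrial tyrosyl-tRNA synthetase, and Prps1l3, whose reads may be shared with related Prps genes, were both at 0.0563. All 5 were lower in BPA mice by construction, since a gene near Tor1aip1 has to share its group difference. Of the set, Tor1b was nearest, at 0.0654 and rank 23, then Tor1aip2 at 0.107 and rank 1242. The lower mean of Tor1b in BPA mice (log2 fold change -0.15) enters its rank in the same way. Tor2a, Lmnb1, Lmna, Tor1a, Tor3a and Lmnb2 lay at 0.157 to 0.234, with ranks from 7048 to 12187. These distances rest on 8 libraries and describe them only.

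Other genes of the nuclear envelope were read from lists. No gene of the lists passed the test across all genes (edgeR, adjusted p at least 0.955), and none had groups that did not overlap, where 1.43% of all tested genes were apart and lower and 1.37% apart and higher. The LINC complex joins the nuclear lamina to the cytoskeleton through SUN and nesprin proteins: of 6 genes, 3 were lower and 3 higher, with a median log2 fold change of -0.065, which was 0.031 without control replicate 2. Syne1, which encodes nesprin 1, was at 739 ± 22.8 CPM in control mice and 744 ± 49.8 CPM in BPA mice, and Sun1 had a fold of 1.02 (95% interval 0.935 to 1.11). Syne1 and Sun1 turned to log2 fold changes of -0.017 and -0.025 without BPA replicate 3. Among 12 inner nuclear membrane and LEM-domain genes, 5 were lower and 7 higher, with a median of 0.0074, and of -0.017 to 0.0053 on leaving out 1 library. Folds were 1.01 (0.936 to 1.09) for Ankle2, needed for nuclear envelope reassembly, and 0.943 (0.878 to 1.01) for Lemd3, which encodes the inner membrane protein MAN1. Of 6 genes grouped by the processing of the lamin tail, 3 were lower and 3 higher, with a median of 0.019. Zmpste24, the protease that matures prelamin A, had a fold of 0.948 (0.882 to 1.02), and Narf, whose product binds prelamin A, 1.05 (0.979 to 1.12).

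Nuclear pore genes were higher more often than lower, by small amounts. Of 30 genes, 21 were higher and 9 lower, with a median log2 fold change of 0.024 and 0 at an unadjusted p under 0.05; of all tested genes 7723 were higher and 7711 lower. Tpr, which encodes the filament protein of the nuclear basket, was at 360 ± 13.1 CPM in control mice and 382 ± 21.0 CPM in BPA mice (fold 1.06, 0.985 to 1.15). Pom121, a membrane anchor of the pore, had a fold of 1.04 (0.968 to 1.13). The ESCRT proteins that seal the nuclear envelope had 9 tested genes of 10 listed, 6 lower and 3 higher, with a median of -0.022. Of these, 2 had an unadjusted p under 0.05 (all tested genes, 4.52%), both higher in BPA mice: Chmp4b, an ESCRT-III filament subunit (145.8 ± 8.96 CPM in control mice and 160.4 ± 12.4 CPM in BPA mice; log2 fold change 0.14 ± 0.062), and Chmp2a, a further subunit (42.9 ± 2.83 CPM in control mice and 49.2 ± 2.23 CPM in BPA mice; 0.20 ± 0.055). Chmp2a was named after its value was seen. The ATPase gene Vps4a had a fold of 0.978 (0.895 to 1.07). Its log2 fold change was 0.11 with the library total as a covariate.

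Lipins make diacylglycerol for membrane lipids and have been tied to torsin in flies. Of 5 genes of this pathway, 1 was lower and 4 higher, with a median log2 fold change of 0.026. Folds were 1.02 (0.948 to 1.09) for Lpin2 and 1.00 (0.934 to 1.08) for Lpin1. The 1 gene at an unadjusted p under 0.05 (all tested genes, 4.52%), Lpin3, was named after its value was seen and was below 1 CPM in both groups (log2 fold change 0.72 ± 0.30). Of 14 other genes of inherited dystonia, 7 were lower and 7 higher, with a median of -9.5e-05 and 0 at an unadjusted p under 0.05. Hpca, the calcium sensor hippocalcin, was at 1367 ± 173 CPM in control mice and 1379 ± 81.2 CPM in BPA mice. Hpca had a log2 fold change of 0.012 with all libraries and -0.047 without control replicate 2. With the library total as a covariate it was 0.22 (edgeR, unadjusted p 0.0573, adjusted p 0.998). In libraries thinned to the smallest total it was 0.015. Thap1, named for its motif upstream of Tor1a, was at 15.1 ± 0.988 CPM in control mice and 15.2 ± 0.955 CPM in BPA mice.

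**Figure D5:**
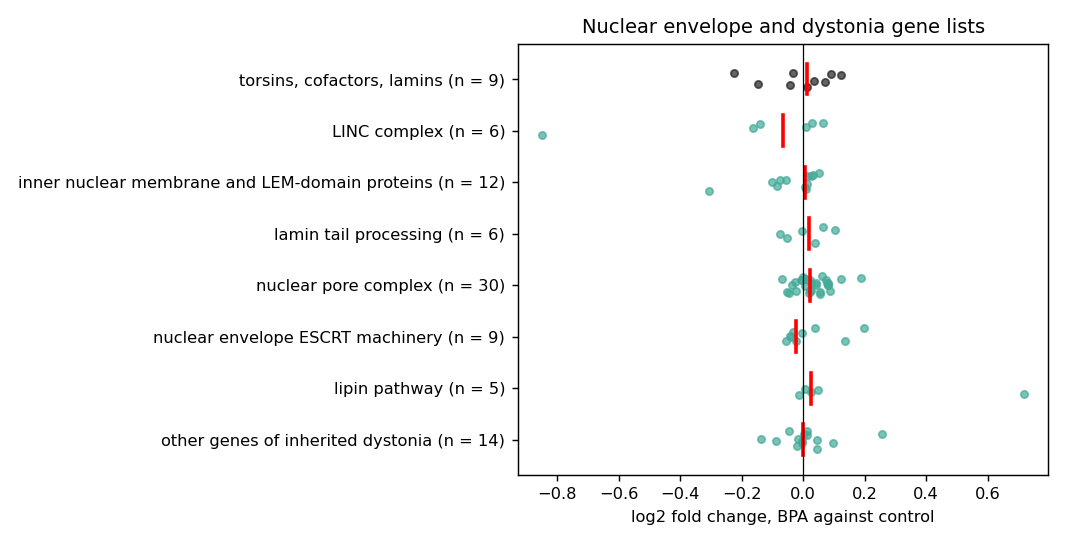
Log2 fold change of BPA against control on the x axis for every tested gene of the set (black) and of 7 gene lists (green), with a red bar at each median and random vertical spread. The medians lie between -0.065 and 0.026, and the genes furthest from 0, in the LINC and lipin lists, are expressed below 1 CPM.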

How the data were processed

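RNA-seq of 8 hippocampal libraries was deposited as 1 table of raw read counts per gene symbol, in whole numbers that the authors had not normalized. The tools named are STAR 2.3.0e, Trimmomatic 0.32, featureCounts 1.5.0 and DESeq2, on mm10, per the submitters' processing notes. Per the file headers, rows follow refGene. Columns were matched to samples by the library code in the titles. No pair of replicates looked like 1 library deposited again: chi-square over degrees of freedom was 9.69 to 23.5 in 12 pairs.

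Counts were filtered with filterByExpr (15434 of 24527 rows kept) and tested across all genes with edgeR 4.0.16 (quasi-likelihood test, R 4.3.3), TMM scaling, 1 group term, two-sided, Benjamini-Hochberg at 0.05. The SE, derived from the test statistic, had a median of 0.0746 over all genes. Count ratios had a prior count of 2 and a two-sided exact permutation test. Alternatives were DESeq2 1.42.0, limma-voom (limma 3.58.1), other scalings and filters, a replicate block, library total as covariate, thinning, and leaving out libraries. Positions and exon lengths come from GENCODE M21 on mm10.

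The genes, lists and ratios were chosen with earlier results of these data known. Named genes are the 9 of the set, the 2 with the highest mean CPM of each list and any past the threshold, the 5 nearest to Tor1aip1 without predicted-gene names, and genes with exons overlapping the set. Chmp2a, Lpin3 and Thap1 lie outside this rule, and 1 gene within it is not reported here.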

Additional observations from a re-analysis of the deposited data

Results flagged for a closer look

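Values were looked at again where 1 of the 4 libraries of a group stood apart, by Dixon's test at 95%. Of 54 groups of values, 4 did so, and chance gives about 1 in 20. Ankle2 was at 57.9 CPM in control replicate 3, with the other controls at 51.4 to 52.2. Lemd3 was at 50.6 CPM in control replicate 4, with the others at 46.2 to 46.6. Chmp4b was at 142 CPM in BPA replicate 1, below the other BPA mice at 166 to 167. Ttc16 was at 0.894 CPM in BPA replicate 1, with the others at 0.392 to 0.438. None of the 9 genes of the set and none of the 3 tested ratios stood apart in this way.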

How the results depend on the processing

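DESeq2, with p-values for 20749 genes, called 7 where edgeR, with 15434, called 0. The other 17 alternatives called 0. The number at an unadjusted p under 0.05 ran from 354 (without BPA replicate 2) to 1167 (without control replicate 3). Tor1aip1 was lower under all 18 alternatives, from -0.25 to -0.14 on the log2 scale. The weakest value, -0.141, came with the library total as a covariate, and the cause was not tested. Of 162 values of the 9 genes under alternatives, 151 kept their direction, and the lowest adjusted p of the 8 genes other than Tor1aip1 was 0.629. On leaving out 1 library, log2 fold changes crossed 0 for Tor2a (-0.0738 to 0.0265), Tor3a (-0.0726 to 0.139), Lmna (-0.0614 to 0.102), Syne1 (-0.0169 to 0.0558), Sun1 (-0.0246 to 0.0581), Ankle2 (-0.00396 to 0.054), Vps4a (-0.0628 to 0.0209), Lpin2 (-0.0104 to 0.0477), Lpin1 (-0.0127 to 0.0254) and Hpca (-0.0474 to 0.0852). Without control replicate 2 and BPA replicate 3 together, values that turned were Tor2a 0.0473, Lmna -0.033, Tor4a 0.0098, Syne1 -0.0129, Sun1 -0.00891, Lpin1 -0.0103 and Hpca -0.0525. With the library total as a covariate they were Tor1aip2 0.0118, Lemd3 0.0057, Zmpste24 0.00584, Vps4a 0.112 and Lpin1 -0.03, and in thinned libraries Tor3a -0.0349. The Tor1a to Tor1b difference was 0.19 to 0.29 on leaving out 1 library (exact permutation p 0.0286 or 0.0571), 0.33 after thinning and 0.23 without both libraries (p = 0.1, the smallest that 3 against 3 can give). The Lmna to Lmnb1 difference ran from -0.14 to 0.046 and that of Lmnb2 to Lmnb1 from -0.039 to 0.13 on leaving out 1 library, the latter at -0.021 without both libraries. Medians turned sign on leaving out 1 library for the LINC (-0.12 to 0.031), inner membrane (-0.017 to 0.0053), lamin tail (-0.009 to 0.039), ESCRT (-0.03 to 0.00072) and dystonia lists (-0.016 to 0.02), and not for the nuclear pore and lipin lists. Replicate numbers are shared between groups but pair nothing in the labels: same-numbered libraries correlated at -0.37 to 0.07 in their deviations from group means, and 0 of 8 correlated best with their own number. With the replicate number as a block, 0 genes were called, with 498 at an unadjusted p under 0.05, and Tor1aip1 was at -0.225. Tor3a and Tor2a rest on as few as 176 and 198 reads per library, and their intervals are the widest of the 4 torsins in the set.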
